A study of Mus musculus with 12 samples.

Results

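The genes described here are 8 members of the Slit, Robo, netrin and Unc5 families of axon guidance genes: Slit1, Slit2, Slit3, Robo1, Robo2, Ntn1, Unc5b and Unc5c. They were chosen by symbol, as every probe set annotated to exactly 1 of them, out of 18194 genes with a symbol on either array. They had 16 probe sets, 10 of the A design and 6 of the B design. RNA came from autopods, the hand and foot plates, dissected at stage E12.5 from mouse embryos that were wild type. The tissue was sampled 3 times from the hindlimb (numbered 12, 14 and 26) and 3 times from the forelimb (11, 13 and 25), and each number appears on an A and a B chip of the MOE430 GeneChips of Affymetrix, which makes 12 arrays. The labels give no treatment and do not say whether a sample was 1 embryo or a pool. The p-values therefore weigh limb differences against a spread between samples that may be technical. For forelimb 11 on the A array the limb is given by its title alone.

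Slits are large secreted proteins that bind Robo receptors of the immunoglobulin superfamily, and are best known for repelling axons from the midline of the nervous system. Netrin-1, encoded by Ntn1, is a laminin-related secreted cue that attracts axons through Dcc and neogenin and repels them through the Unc5 receptors, whose cytoplasmic tails carry a death domain. Outside the nervous system the same ligands and receptors act on migrating cells, vessels and branching epithelia, and Slit and Robo transcripts are known from limb bud mesenchyme as well as from the nerves that grow into it. A whole autopod mixes mesenchyme, cartilage, ectoderm, vessels and nerve, so fewer cells of a type and less RNA per cell cannot be told apart in any value below.

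Values are MAS5.0 signals, each array brought to a trimmed mean of 500. Differences subtract the forelimb mean from the hindlimb mean of log2(signal + 32), with n = 3 samples per limb, from limma fits over all 15338 tested probe sets of the A array and all 17145 of the B array. The scale understates the change of dim probe sets. Levels on the 2 array designs, and levels of different probe sets, are not on a common scale. A probe set was tested where at least 3 of the 6 arrays had a scaled signal of at least 100. The labelled tissue and limbs showed in their markers. Prrx1, a factor of limb mesenchyme, had signals of 2855.4 to 3188.8 in hindlimb and 3118.4 to 3202.4 in forelimb on the A array, and Tbx5, the T-box factor of the forelimb, had 29.3 to 173.8 in hindlimb and 1145.1 to 1380.9 in forelimb.

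Of the 16 member probe sets 12 were tested, 7 of the A and 5 of the B design, covering 6 of the 8 genes. None passed an adjusted p of 0.05 in limma, where 0.0326% of all tested probe sets of the A array and 0.0117% of the B array did. At an unadjusted p under 0.05 there were 2 of 7 A-array and 2 of 5 B-array probe sets of the members, where 5.54% of all tested probe sets on each array stood. Of these 4, 3 belonged to Slit2 and 1 to Robo2, with opposite signs. The hindlimb and forelimb samples did not overlap on 3 of 7 member probe sets of the A design (2 of Slit2 and 1 of Unc5c) and 1 of 5 of the B design (Robo2), against 11% and 10.9% of all tested probe sets. These counts lean on 1 gene: the annotation gives the same source sequence for both Slit2 probe sets of the A array, so they are not separate evidence. The members had a median difference of -0.27 among A-array and -0.12 among B-array probe sets, beside -0.0086 and -0.014 over all tested probe sets.

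**Figure D1:**
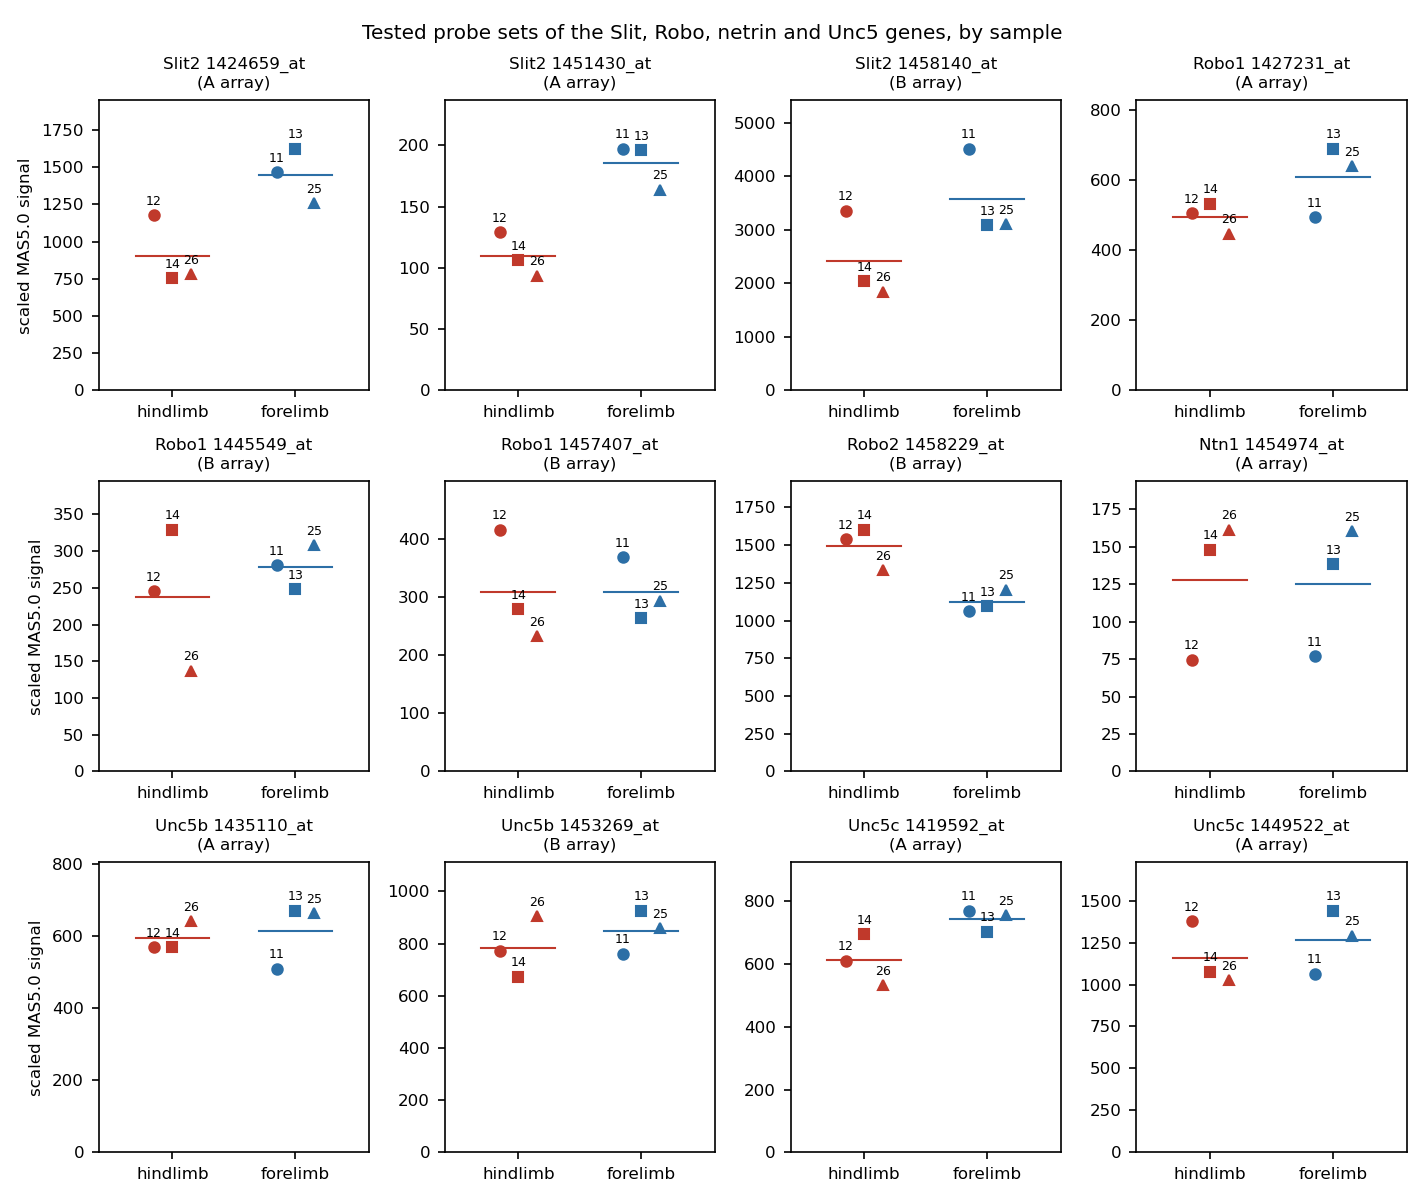
Scaled MAS5.0 signal (y axis, linear from 0, its own range in each panel) of the 12 tested member probe sets in each sample, hindlimb in red on the left and forelimb in blue on the right, with sample numbers beside the points and the mean of 3 samples as a line. On both Slit2 panels of the A array and on Unc5c 1419592_at all hindlimb points lie under all forelimb points, on Robo2 all lie above, and on Ntn1 1454974_at samples 12 and 11 lie apart from the other 4.

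Because Slit2 and Robo2 were the members with the smallest p on their arrays, the bases just upstream of their starts are shown, with letters that match a searched motif in capitals. They are the 250 bases before the transcription start in RefSeq's annotation of build GRCm38.p6, read 5′ to 3′ on the gene's strand. The Slit2 window is chr5:47982905-47983154 on the plus strand, with 69.6% G and C. Robo2 has 3 annotated starts in that table, and the one shown is the most upstream, chr16:75447294-75447543 on the minus strand, with 53.2% G and C.
Slit2: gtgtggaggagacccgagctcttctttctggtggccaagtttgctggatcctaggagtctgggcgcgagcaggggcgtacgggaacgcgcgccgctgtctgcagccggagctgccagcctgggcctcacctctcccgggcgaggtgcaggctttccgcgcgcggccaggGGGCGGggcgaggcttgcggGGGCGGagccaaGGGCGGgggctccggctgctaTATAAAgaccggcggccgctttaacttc
Robo2: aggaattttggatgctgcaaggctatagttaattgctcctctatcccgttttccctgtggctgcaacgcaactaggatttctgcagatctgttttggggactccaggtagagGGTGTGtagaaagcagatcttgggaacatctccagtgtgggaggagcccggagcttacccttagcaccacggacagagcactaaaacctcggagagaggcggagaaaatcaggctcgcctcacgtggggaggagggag

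The capitals mark matches on either strand to 4 motifs, none of which overlapped another here. TATAAA, the TATA motif, occurred 1 time in the Slit2 window, and 12.4% of all 32851 windows of this length in the table hold it. GGGCGG, the GC box, occurred 3 times in Slit2 (32.7% of windows hold it). GGTGTG, the core of the T-box site, occurred 1 time in the Robo2 window shown and not in that of Slit2 (16.3% of windows). TAATCC, the core bound by bicoid-type homeodomains such as that of Pitx1, occurred in neither (6.25% of windows). The other 2 Robo2 windows held none of the 4 motifs. A match describes these letters alone; binding was not measured. Of the 8 genes, 6 have windows in this table, and the windows of Robo1 and Unc5c held none of the 4 motifs, while those of Slit3 and Unc5b held 6 and 2 matches to GGGCGG.

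Among the ligands, Slit2 was the member with the smallest p, with lower signals in hindlimb on all 3 of its probe sets. On Slit2 1424659_at of the A array the signal was 1175.6, 752.2 and 780.2 in hindlimb 12, 14 and 26, against 1467.1, 1625.1 and 1256.5 in forelimb 11, 13 and 25. All hindlimb samples lay below all forelimb samples, with hindlimb 12 nearest to them. The means were 903 ± 237 in hindlimb and 1450 ± 185 in forelimb (SD, n = 3 each), a ratio of 0.623. The difference was -0.69 ± 0.18 (SE), with a 95% interval of -1.08 to -0.30, and missed the threshold (limma adjusted p = 0.496). It had the 78th smallest p of the 15338 tested.

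The dimmer Slit2 probe set of the A array, 1451430_at, had 129.2, 106.3 and 93.5 in hindlimb 12, 14 and 26, against 197.4, 196.2 and 164.0 in forelimb 11, 13 and 25. Here too the limbs did not overlap, and hindlimb 12 was again the highest of its limb. Its difference was -0.62 ± 0.17 (SE, limma adjusted p = 0.584).

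Slit2 1458140_at of the B array had 3357.4, 2036.9 and 1845.5 in hindlimb 12, 14 and 26, against 4519.4, 3083.2 and 3106.7 in forelimb 11, 13 and 25. Hindlimb 12 lay above forelimb 13 and 25, so the limbs overlapped, while hindlimb 14 and 26 lay below every forelimb sample. The difference was -0.59 ± 0.22 (SE), with a 95% interval of -1.08 to -0.094 and an adjusted p of 0.894 in limma. Sample 12 was the highest hindlimb sample on all 3 Slit2 probe sets. Without it the differences were -0.88 (adjusted p = 0.134), -0.72 (0.497) and -0.85 (0.419) in limma. Without forelimb 11, whose limb on the A array rests on its title, they were -0.67 (adjusted p = 0.755), -0.59 (0.780) and -0.41 (0.971) in limma. The unadjusted limma p of the B-array probe set was 0.082 without hindlimb 14, 0.103 without hindlimb 26 and 0.107 without forelimb 11. It stayed under 0.05 without hindlimb 12, forelimb 13 or forelimb 25. With all samples and no trend in the variance prior it was 0.074.

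Some measures parted the limbs on the A array, as Slit2 did, and are given here by limb. Whether they followed Slit2 from sample to sample, and their part in its values, was not tested. The summed signal of the 4 cartilage markers (Sox9, Col2a1, Acan and Matn1) was 2355 to 3343 in hindlimb and 4059 to 4697 in forelimb, without overlap; the 3 tested had negative differences, none past the threshold, and Matn1 was below the filter with signals of 13.9 to 103.8. Col2a1 was the largest part of this sum, at 1373.3 to 2322.9 in hindlimb and 2597.4 to 3249.4 in forelimb. Sox9 by itself overlapped on the A array, at 768.9 to 1149.2 in hindlimb and 1046.4 to 1147.2 in forelimb. Sox9 was the 1 cartilage marker of the B array, at 12.1 to 170.7 in hindlimb and 9.3 to 173.5 in forelimb. The Gapdh log2 ratio of 3′ over 5′ signal, a sign of RNA quality, was -0.299 to -0.263 in hindlimb and -0.239 to -0.078 in forelimb on the A array. It was -0.173 to -0.113 in hindlimb and -0.253 to -0.073 in forelimb on the B array, with overlap. The same log2 ratio for actin overlapped on both arrays, at 0.222 to 0.270 in hindlimb and 0.118 to 0.261 in forelimb on the A array, and at 0.208 to 0.320 in hindlimb and 0.238 to 0.313 in forelimb on the B array.

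The summed signals of the other marker lists (mesenchyme, tendon, muscle, endothelium, nerve and Schwann cells, surface ectoderm, neurons) overlapped between the limbs on each array that carried them, but single markers of the A array within them did not. Ngfr, a neurotrophin receptor of nerve and Schwann cells, had 176.2 to 262.2 in hindlimb and 367.2 to 408.6 in forelimb (-0.72, limma adjusted p = 0.376). Krt14, a keratin of ectoderm, had 540.0 to 827.0 in hindlimb and 982.3 to 1578.4 in forelimb (-0.83, adjusted p = 0.438). Dcx, of young neurons, had 265.9 to 399.9 in hindlimb and 430.2 to 602.4 in forelimb (-0.56, adjusted p = 0.633), and Myog, of muscle, 97.5 to 162.5 in hindlimb and 163.5 to 193.4 in forelimb (-0.30, adjusted p = 0.955). Nefm, a neurofilament, went the other way, with 103.5 to 160.5 in hindlimb and 64.7 to 77.8 in forelimb (0.72, adjusted p = 0.599). None of these passed the threshold, and their part in the Slit2 values was not tested. Among the other A-array markers of ectoderm, Cdh1 (0.013), Epcam (-0.013) and Trp63 (0.089) had overlapping limbs. So did Sox10 of nerve and Schwann cells (0.0038), and Des (-0.20) and Myod1 (-0.12) of muscle. Pax3 of muscle and Isl1, Stmn2 and Tubb3 of neurons were not tested. Isl1 had 42.0 to 88.5 in hindlimb and 18.7 to 58.6 in forelimb, and Stmn2 88.0 to 139.0 and 69.1 to 94.7. Tubb3 had 48.8 to 74.0 in hindlimb and 31.3 to 85.1 in forelimb.

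Slit1 and Slit3, the other Slit ligands, were near or below the filter and were not tested. Slit1 1425277_at on the A array had 4.3 to 38.4 in hindlimb and 4.0 to 28.7 in forelimb. Slit1 1440056_at of the B array had 40.7, 153.6 and 57.8 in hindlimb 12, 14 and 26, against 55.0, 217.8 and 65.0 in forelimb 11, 13 and 25. Samples 14 and 13 thus stood above the other 4, 1 from each limb. Slit3, on the A array alone, had 26.1, 25.7 and 92.7 in hindlimb 12, 14 and 26, against 13, 24.0 and 22.7 in forelimb 11, 13 and 25. The limbs did not overlap on Slit3, but every signal was under 100, and hindlimb 12 and 14 lay just above the highest forelimb sample.

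Ntn1, the netrin ligand, was dim on both of its A-array probe sets, and on the brighter one its samples parted by number and not by limb. On Ntn1 1454974_at the signal was 74.7, 148.1 and 161.4 in hindlimb 12, 14 and 26, against 77.0, 138.2 and 160.2 in forelimb 11, 13 and 25. Hindlimb 12 and forelimb 11 were about equal and lay under the filter level, and the other 4 samples were all above it. The difference was 0.020 ± 0.28 (SE), with a wide 95% interval of -0.60 to 0.63 (limma adjusted p = 0.999). With consecutive sample numbers as a block the standard error was 0.18. The sign of this difference turned to -0.22 without forelimb 11. Ntn1 1422987_at, below the filter, had 77.5, 117.3 and 76.1 in hindlimb 12, 14 and 26, against 72.1, 106.8 and 93.8 in forelimb 11, 13 and 25. Samples 14 and 13 were the highest of their limbs there, while hindlimb 26 lay beside samples 12 and 11 and below forelimb 25, its neighbour in number.

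**Figure D2:**
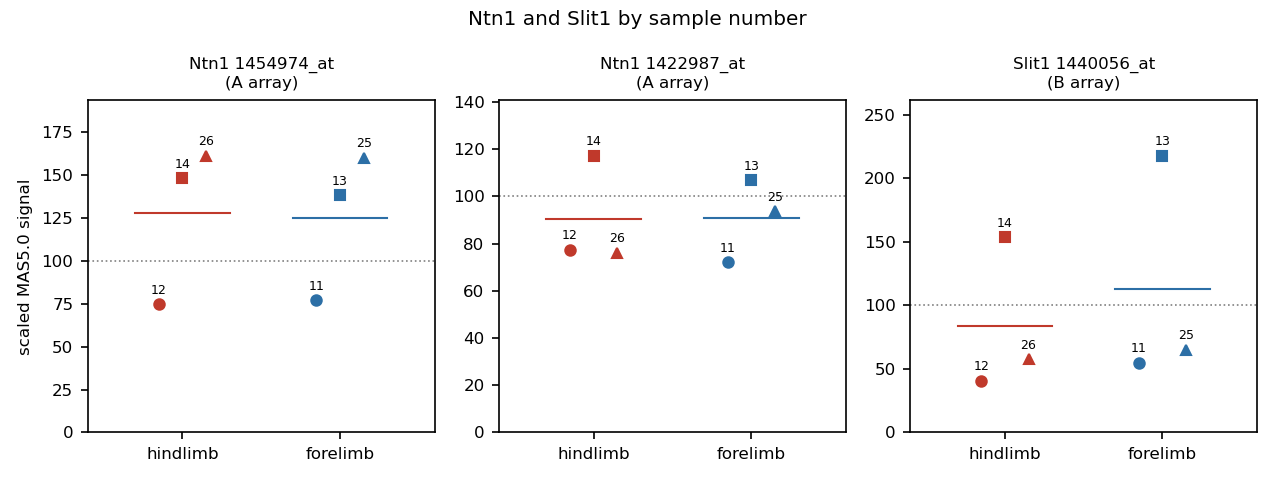
Scaled MAS5.0 signal (y axis, linear from 0) of both Ntn1 probe sets of the A array and of the Slit1 probe set of the B array, hindlimb in red on the left and forelimb in blue on the right, with sample numbers beside the points, the mean of 3 samples as a line, and the filter level of 100 dotted. Ntn1 1454974_at was low in samples 12 (74.7) and 11 (77.0), and Slit1 was high in samples 14 (153.6) and 13 (217.8).

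Among the receptors of Slits, Robo2 had higher signals in hindlimb, the opposite sign to Slit2. Its 1 probe set, Robo2 1458229_at on the B array, had 1540.5, 1602.6 and 1334.8 in hindlimb 12, 14 and 26, against 1062.0, 1094.9 and 1204.8 in forelimb 11, 13 and 25. All hindlimb samples lay above all forelimb samples. The means were 1493 ± 140 in hindlimb and 1121 ± 74.8 in forelimb (SD, n = 3 each), a ratio of 1.33. The difference was 0.40 ± 0.13 (SE), with a 95% interval of 0.10 to 0.70, and missed the threshold (limma adjusted p = 0.882), with the 250th smallest p of the 17145 tested. Leaving out each sample in turn gave 0.35 to 0.48.

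Robo1, the other Slit receptor of the set, had overlapping limbs on its 3 probe sets. On Robo1 1427231_at of the A array the signal was 504.8, 532.0 and 447.0 in hindlimb 12, 14 and 26, against 493.6, 689.7 and 640.2 in forelimb 11, 13 and 25. Forelimb 11 lay among the hindlimb samples, and the other 2 forelimb samples lay above them all. The difference was -0.27 ± 0.15 (SE, limma adjusted p = 0.94), and leaving out 1 sample moved it both ways, to -0.41 ± 0.15 without forelimb 11 (adjusted p = 0.78) and to -0.18 ± 0.17 without forelimb 13 (adjusted p = 0.952). Robo1 1445549_at of the B array had 245.7, 329.2 and 137.1 in hindlimb 12, 14 and 26, against 280.7, 247.8 and 307.8 in forelimb 11, 13 and 25, with a difference of -0.27 ± 0.30 (adjusted p = 0.945). The hindlimb samples were spread both above and below the forelimb samples, and the sign turned to 0.032 without hindlimb 26, the lowest of them. Robo1 1457407_at had 416.4, 279.2 and 232.8 in hindlimb 12, 14 and 26, against 369.2, 264.3 and 294.2 in forelimb 11, 13 and 25, with a difference of -0.023 ± 0.26 (adjusted p = 0.993). Samples 12 and 11 were the highest of their limbs on this probe set. Its 95% interval of -0.59 to 0.54 leaves room for a limb difference of either sign.

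The 4 probe sets of the Unc5 receptors of netrin had differences of -0.27 to -0.040. Unc5b, known from endothelium as well as from neurons, had 570.4, 569.4 and 642.4 in hindlimb 12, 14 and 26 on 1435110_at of the A array, against 509.4, 671.2 and 664.8 in forelimb 11, 13 and 25. The limbs overlapped, and forelimb 11 was the lowest sample. The difference was -0.040 ± 0.14 (SE, limma adjusted p = 0.995), with a 95% interval of -0.36 to 0.28. Unc5b 1453269_at of the B array had 772.0, 672.8 and 905.6 in hindlimb 12, 14 and 26, against 762.0, 926.3 and 858.5 in forelimb 11, 13 and 25, with a difference of -0.12 ± 0.16 (adjusted p = 0.953). The limbs overlapped there as well, and the difference ran from -0.22 without hindlimb 26 to -0.017 without hindlimb 14.

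Unc5c, a receptor that mediates netrin repulsion in the cerebellum and spinal cord, had 2 probe sets on the A array that the annotation ties to the same transcript. On Unc5c 1419592_at the signal was 610.2, 694.4 and 531.6 in hindlimb 12, 14 and 26, against 769.9, 702.8 and 754.4 in forelimb 11, 13 and 25. The limbs did not overlap, but hindlimb 14 lay close under forelimb 13. The difference was -0.27 ± 0.14 (SE), with a 95% interval of -0.57 to 0.027 (limma adjusted p = 0.94), and was -0.18 without hindlimb 26. Unc5c 1449522_at had 1375.7, 1076.0 and 1026.1 in hindlimb 12, 14 and 26, against 1064.7, 1440.0 and 1289.5 in forelimb 11, 13 and 25, with overlap and a difference of -0.12 ± 0.15 (adjusted p = 0.982). Leaving out 1 sample took that difference from -0.25 (without hindlimb 12) to -0.027 (without forelimb 13). The brighter of the 2 Unc5c probe sets thus did not show the separation seen on the other.

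**Figure D3:**
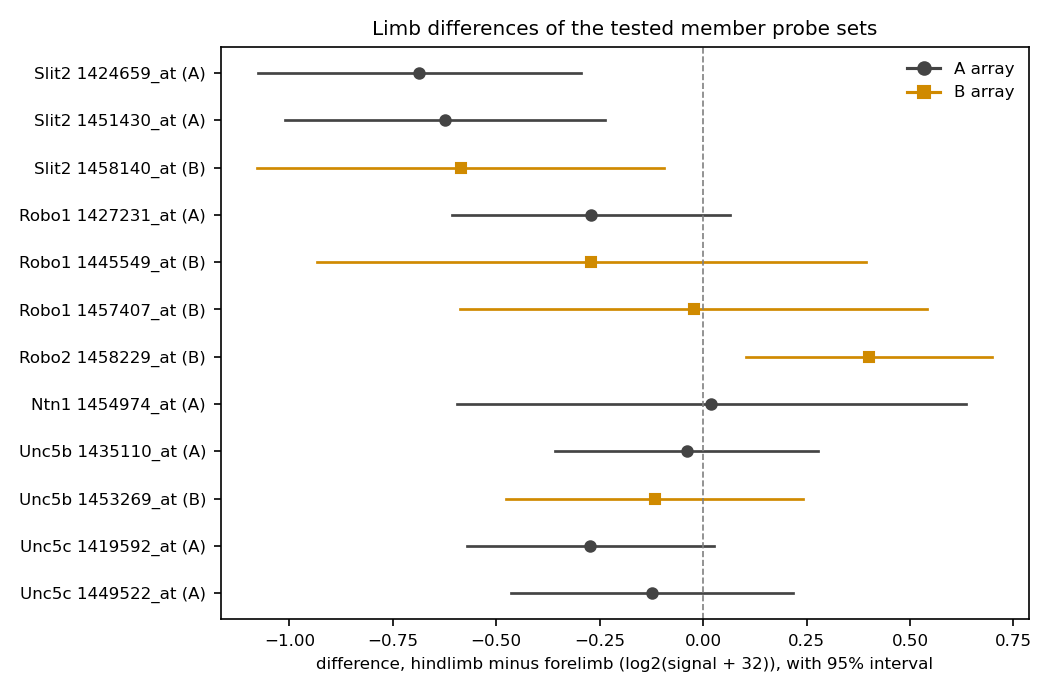
Differences of the 12 tested member probe sets (x axis, hindlimb minus forelimb, log2(signal + 32)) with 95% intervals from limma as lines, A array in grey circles and B array in orange squares. The intervals of the 3 Slit2 probe sets lie below 0 and that of Robo2 above 0, unadjusted for the number of probe sets tested, and the other 8 include 0.

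The probe sets most like Slit2 and Robo2 over the 6 arrays of their design were found by Pearson's r of log2(signal + 32). For Slit2 1424659_at they were Peli2 (r = 0.985), Aebp2 (0.982) and Ank (0.982), with limb differences of -1.07, -0.28 and -0.37. Peli2 was dim, at 19.0 to 83.7 in hindlimb and 101.1 to 130.4 in forelimb. For Robo2 1458229_at they were Sike1 (r = 0.985), Dock4 (0.981) and Zfp617 (0.979), with limb differences of 0.61, 0.36 and 0.39. An r of at least 0.95 was reached by 40 of 14109 named probe sets for Slit2 and by 29 of 11388 for Robo2. With 6 arrays that share a limb contrast, such likeness is a description only.

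Other genes of the pathway were counted in 5 lists with 56 genes, of which 3 had no probe set with a single symbol on either array. None of their 56 tested A-array and 57 tested B-array probe sets passed an adjusted p of 0.05 in limma. At an unadjusted p under 0.05 there were 0 A-array and 4 B-array probe sets, of which 3 had a positive and 1 a negative difference. Of all tested probe sets 5.54% stood under that level on each array.

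The other receptors held the partners through which netrin attracts. Neo1, neogenin, had 577.7, 741.8 and 821.6 in hindlimb 12, 14 and 26, against 867.6, 838.6 and 675.5 in forelimb 11, 13 and 25 on the A array, a difference of -0.15 ± 0.16 (SE). Dcc had -0.20 ± 0.19, and Robo4, the Robo of endothelium, -0.14 ± 0.16. These were the 3 probe sets of the list tested on the A array (median -0.15), and their limbs overlapped. Of the B array 9 probe sets of 5 genes were tested, 3 with positive and 6 with negative differences (median -0.046). Neo1 had differences of -0.14, -0.046, -0.024 and 0.074 there, all with overlapping limbs. Dscam, an adhesion molecule that also binds netrin, had 0.59 ± 0.23 on 1 probe set (limma adjusted p = 0.894) and -0.40 ± 0.39 on another. Unc5a had 0.63 ± 0.34 and Unc5d -0.37 ± 0.22, both with overlapping limbs.

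The other netrin family ligands had differences of -0.25 to 0.11. On the A array Ntng1, a membrane-bound netrin, had -0.25 ± 0.21 (SE) and Ntn3 -0.15 ± 0.20, the 2 probe sets tested (median -0.20). B-array probe sets gave -0.19 ± 0.32 and -0.081 ± 0.17 for Ntng1, and Ntn4 had 0.11 ± 0.25 and Ntng2 0.035 ± 0.37 (median -0.023). Their limbs overlapped on both arrays.

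Other ligands of these receptors were tested on the B array alone, as 16 probe sets of 6 genes, 5 with positive and 11 with negative differences (median -0.15). Flrt3, a leucine-rich transmembrane protein of a family that binds Unc5 receptors, had 2226.1, 2330.4 and 2369.7 in hindlimb 12, 14 and 26, against 1725.5, 1388.4 and 1878.3 in forelimb 11, 13 and 25. All hindlimb samples lay above all forelimb samples, with a difference of 0.48 ± 0.14 (SE, limma adjusted p = 0.775). A second Flrt3 probe set gave 0.32 ± 0.13 (adjusted p = 0.894), again without overlap. Flrt1 went the other way, with 671.3, 704.2 and 844.9 in hindlimb 12, 14 and 26, against 912.7, 1074.2 and 912.0 in forelimb 11, 13 and 25 (-0.37 ± 0.16, adjusted p = 0.894). Rgmb, a ligand of neogenin, had 6 tested probe sets of mixed sign. The limbs did not overlap on 2 of them, with differences of -0.42 ± 0.20 and -0.30 ± 0.17 (SE, limma adjusted p = 0.904 for each). On the other 4 they overlapped, with differences of -0.31, -0.20, 0.097 and 0.27. Of all tested probe sets of the B array 10.9% had limbs that did not overlap.

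The heparan sulfate and dystroglycan list holds genes whose products bind Slits or make the sugar chains that present them at the cell surface. On the A array 8 of its 18 tested probe sets had positive and 10 had negative differences (median -0.095). The smallest p values belonged to Hs6st1 (-0.47 ± 0.22, SE), Sdc1 (0.20 ± 0.10), Hs6st2 (-0.43 ± 0.22) and Sdc3 (-0.24 ± 0.13). Among these the limbs did not overlap on the 2 syndecans. They also did not overlap on a probe set of Dag1 (-0.24), of Hs2st1 (-0.19) and on another of Sdc1 (0.13). The remaining Sdc1 probe sets (0.30 and -0.21) and another of Sdc3 (-0.21) had overlapping limbs. So did the other A-array probe sets of Dag1 (0.063, -0.053 and 0.012) and of Hs2st1 (-0.24 and -0.14). Limbs did not overlap on 11% of all tested probe sets of the A array. On the B array 5 probe sets were tested (median -0.065), with Ext2 at -0.31 ± 0.24 and 0.26 ± 0.60, Hs2st1 at -0.050 ± 0.13 and Ext1, a heparan sulfate polymerase, at -0.065 ± 0.17. Among the cytoplasmic mediators 11 of 33 tested probe sets on the A array had positive and 22 had negative differences (median -0.059), with Vasp at -0.30 ± 0.15, Rac1 at -0.23 ± 0.12, Dapk1 at -0.27 ± 0.17 and Rhoa at -0.17 ± 0.11. A second A-array probe set had -0.20 for Rac1, -0.047 for Dapk1 and -0.011 for Rhoa. On the B array 16 of 23 were positive and 7 negative (median 0.039), with Abl1 at -0.28 ± 0.21, Abl2 at 0.17 ± 0.14, Mycbp2 at 0.21 ± 0.18 and Rhoa at -0.64 ± 0.55. Other Mycbp2 probe sets of the B array had -0.16 to 0.15. This Rhoa probe set was dim, at 177.1, 14.3 and 98.6 in hindlimb 12, 14 and 26, against 146.4, 120.7 and 145 in forelimb 11, 13 and 25.

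**Figure D4:**
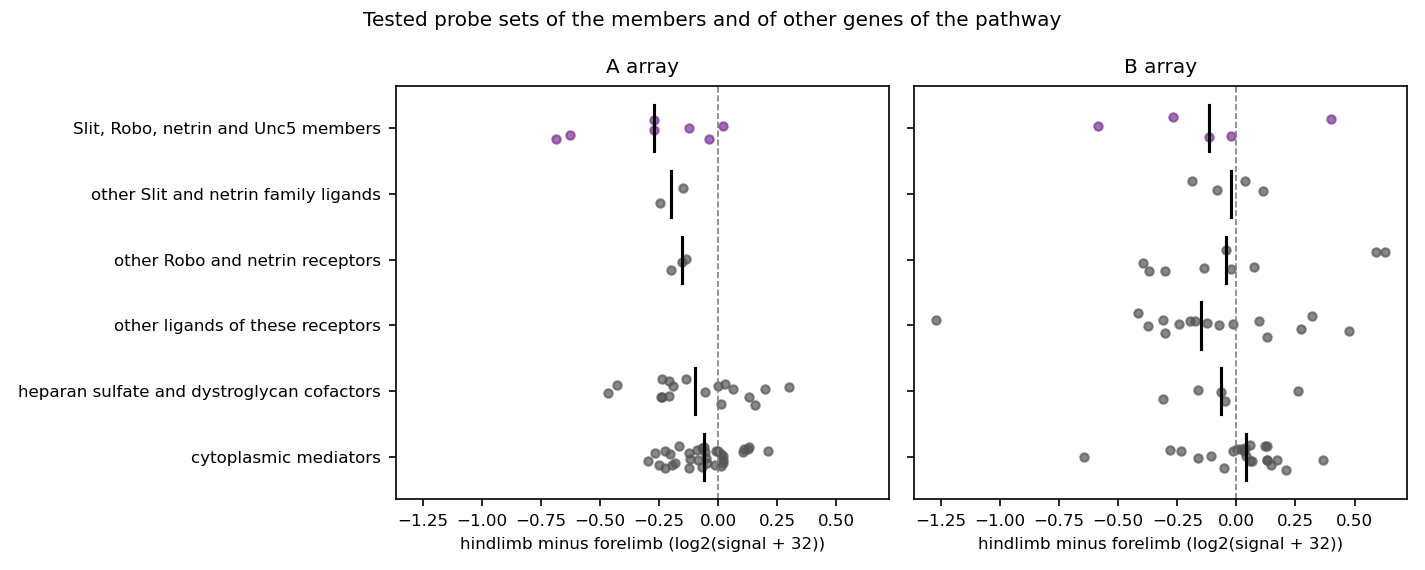
Differences (x axis, hindlimb minus forelimb, log2(signal + 32)) of every tested probe set of the members (purple) and of the 5 lists of other pathway genes (grey), A array on the left and B array on the right, with the median of each row as a black bar and random vertical scatter for sight only. The member medians are -0.27 and -0.12, and the list medians run from -0.20 to -0.059 (A array) and from -0.15 to 0.039 (B array).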

How the data were processed

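The values the authors deposited are intensities, MAS5.0 signals of a linear scale, per the labels; those of forelimb 11 on the A array do not name the unit. Their 2% trimmed mean was 350.1 on the A arrays and 70.0 on the B arrays. Detection calls and other upstream steps: not given in the sources used here. Symbols of the platform annotation were updated by gene identifier with RefSeq's gene table of GRCm38.p6. A single symbol stood beside 20393 A-array probe sets (20364 found in that table), several beside 691 and none beside 1606; of the B design these were 14674 (14499 found), 245 and 7656.

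Arrays were scaled to a trimmed mean of 500 (factors of 1.43 for A and 7.14 for B) and taken as log2(signal + 32). The filter asked for a signal of at least 100 on 3 arrays, without the 64 control probe sets of each design; 65.5% to 68.1% of probe sets of the A design and 72.7% to 75.5% of the B design reached 100. The limbs were compared in each design separately with limma 3.58.1 under R 4.3.3, using eBayes with a variance trend, two-sided tests and Benjamini-Hochberg adjustment over all tested probe sets; the fit was tested on simulated data. Figures used Python 3.11.15 with matplotlib 3.10.9. Precision is limited by the number of arrays, with a median standard error of 0.16 (A) and 0.23 (B).

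The members, gene lists and marker lists were chosen with earlier results of these data known. Every member probe set is accounted for; of each list, probe sets past the threshold and up to 4 of smallest p per design are named, and the 3 most alike probe sets of other genes for the member of smallest p per design. Alternatives tried were a pseudocount of 1 or of 100, dropping the filter or setting it at 200, quantile normalization, unscaled deposited signals, an eBayes prior without trend, a block of consecutive sample numbers, and leaving out each sample with the filter kept from all arrays.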

Additional observations from a re-analysis of the deposited data

How the results depend on the processing

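Of the member probe sets tested in the main fits, none passed the threshold under any alternative run. Those below the filter were not followed when it was dropped. The adjusted p of the 3 Slit2 probe sets ranged from 0.134 to 0.975 in limma. Slit2, Robo2, Unc5c, Robo1 1427231_at and Unc5b 1453269_at kept their sign under every alternative in which they were tested. Several of these values moved by more than 1.5 times: leaving out 1 sample gave -0.41 to -0.18 for Robo1 1427231_at, -0.36 to -0.18 for Unc5c 1419592_at, -0.25 to -0.027 for Unc5c 1449522_at and -0.22 to -0.017 for Unc5b 1453269_at. The filter at 200 left Slit2 1451430_at and Ntn1 untested. The sign turned for the other 4. They ran from -0.22 to 0.29 for Ntn1, -0.16 to 0.025 for Unc5b 1435110_at, -0.24 to 0.14 for Robo1 1457407_at and -0.52 to 0.032 for Robo1 1445549_at, whose difference over all samples was -0.27. Quantile normalization gave 0.028 for Robo1 1457407_at. The numbers of probe sets past the threshold, 5 for the A and 2 for the B design, were 1 and 1 without the filter, where more probe sets were tested, and 8 and 4 with consecutive numbers as a block. Without the trend the B array had 0 (limma; 871 at an unadjusted p under 0.05), and leaving out 1 sample gave 3 to 9 and 1 to 4; the cause was not tested.

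The labels do not pair hindlimb with forelimb samples. Deviations from the limb mean over all tested probe sets correlated between consecutive numbers at 0.208 (12 with 11), 0.108 (14 with 13) and 0.0765 (26 with 25) on the A array, and at 0.0022, 0.048 and 0.039 on the B array. Each A-array sample correlated best with its neighbour in number; samples 12 and 11 of the B array did not. With the block the Slit2 differences had adjusted p of 0.289, 0.454 and 0.574 in limma, and Robo2 0.722. Dim signals limit what can be said of Slit1, Slit3 and Ntn1.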

Other observations

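Set side by side by consecutive number, Slit2 had a lower signal in hindlimb in each of the 3 pairs on each of its 3 probe sets. On both A-array probe sets the limbs did not overlap, so any pairing would give this there. On the B array these pairs were 3357.4 against 4519.4 in 12 and 11, 2036.9 against 3083.2 in 14 and 13, and 1845.5 against 3106.7 in 26 and 25. The standard error of this probe set was 0.11 with consecutive numbers as a block and 0.22 without. The labels do not give this pairing, and deviations of samples 12 and 11 correlated at 0.0022 on the B array. The 3 probe sets share their sample numbers, so they are not separate evidence. Of the Ntn1 and Slit1 probe sets, Ntn1 1454974_at was low in samples 12 and 11 and Slit1 1440056_at was high in samples 14 and 13. This pattern was noticed after the values were seen.

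A dim Flrt1 probe set on the B array, singled out after its value was seen, had the most negative difference of the pathway lists, -1.27 ± 0.62 (SE, limma adjusted p = 0.904). Its signals were 141.4, 8.6 and 22.1 in hindlimb 12, 14 and 26, against 86.4, 146.4 and 220.7 in forelimb 11, 13 and 25, with overlap.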
